A study of Sus scrofa with 2 samples.

Results

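Enzymes that inactivate or conjugate steroids were examined in ovarian RNA of conventional pigs and minipigs through 4 genes: SULT1E1, HSD11B2, AKR1C1 and DHRS4. The members were chosen by name, and their probes are those whose RefSeq transcript accession belongs to one of these genes in the pig annotation Sscrofa11.1. They are 4 of the 2459 gene symbols that could be given to probes, and 10 of the 5577 probes with a symbol. The conventional pigs were Yorkshire sows and the minipigs were Midget pigs, both 10 months old, with ovaries taken on day 15 of the estrous cycle and corpora lutea cut away before RNA extraction. The study's methods name 5 animals of each breed, and whether an array received RNA of 1 animal or of a pool is not given in the sources used here. RNA was hybridised to 1 single-colour Agilent porcine array per breed, so no difference could be set against replicates and none was tested.

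Steroid hormones are switched off in target and source tissues by a small number of chemical steps. Sulfotransferases and glucuronosyltransferases attach a water-soluble group, while dehydrogenases and reductases oxidise or reduce a hydroxyl or keto group that the receptor recognises. In the ovary these enzymes act beside the enzymes of steroid synthesis, and reduction of progesterone at carbon 20 is a known feature of the regressing corpus luteum.

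Levels are the log2 processed signal of a probe minus the 75th percentile of its own array, which was a signal of 494 for the minipig and 513 for the conventional pig. Every difference is conventional pig minus minipig, so a positive value means a higher level in the conventional pig. "In the conventional pig" and "in the minipig" stand for the single array with that breed on its scanner file. The log2 table that the authors deposited assigns the breeds the opposite way, and each direction is exchanged under its labels. Its minipig column matches the conventional pig scanner values to within 7.46e-07 after 1 constant is removed. Of the probes in that table, the scanner labels put 2694 at least 2-fold higher in the conventional pig and 2923 in the minipig. The paper gives the same numbers as up and down at that cutoff, in a comparison it heads pig against minipig. Technical spread was small beside the larger differences: over 39 probes printed several times, a difference between single spots had an SD of 0.24. This spread covers spots and not animals.

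Of the 10 member probes, 9 lay well above background in both breeds and 6 differed at least 2-fold, 5 of them toward the conventional pig and 1 toward the minipig. Over all 38883 probes with a value, 2909 (7.48%) were at least 2-fold higher in the conventional pig and 3475 (8.94%) in the minipig. By gene, taking the median over probes, HSD11B2 and DHRS4 were at least 2-fold higher in the conventional pig, SULT1E1 was in the minipig, and AKR1C1 lay between. Among the 2363 named genes with a value, 277 (11.7%) and 188 (7.96%) passed 2-fold in these directions. The members were picked with earlier results in view, so nothing is read from their own share. The median difference over all probes was -0.12, and median centring moved it by 0.15 and quantile normalization by 0.11. The split of 2-fold probes, with more toward the minipig as reported, turned toward the conventional pig with median centring (3840 and 2579), normexp background correction (2020 and 1411), quantile (3070 and 2909) and loess normalization (3042 and 2930). The probe split stayed toward the minipig with no filter on dim probes (3152 and 4517). It also did with only probes well above background in both breeds (2722 and 2907) and in the deposited table (2694 and 2923). For genes the split as reported already ran toward the conventional pig, and median centring widened it to 364 and 140.

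**Figure D1:**
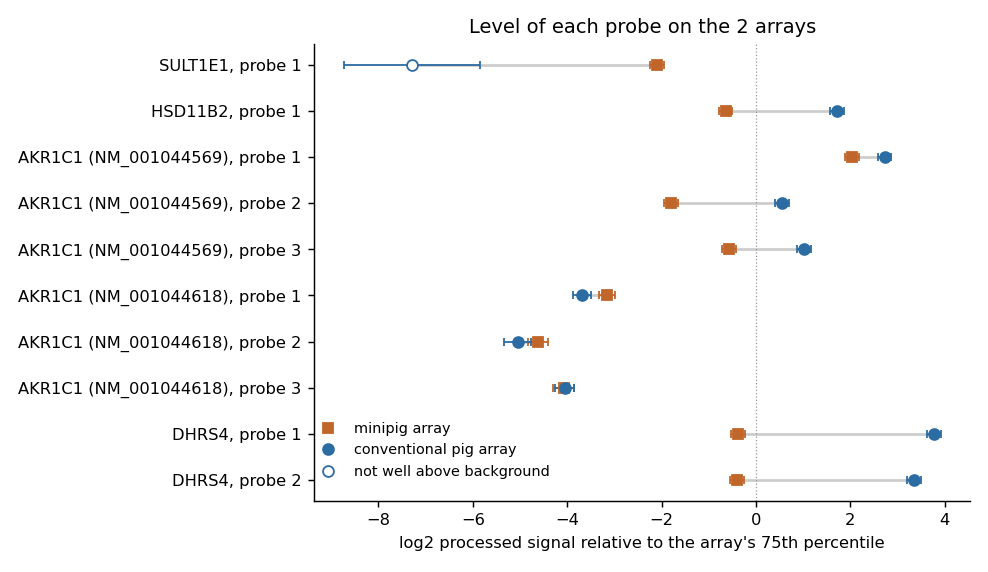
Level of each member probe in the minipig (squares) and the conventional pig array (circles), as log2 processed signal relative to the array's 75th percentile, with the scanner's own error as bars and an open symbol where the probe was not well above background. The DHRS4 probes lay at -0.38 and -0.41 in the minipig and at 3.77 and 3.35 in the conventional pig, the HSD11B2 probe at -0.64 and 1.71, and SULT1E1 was well above background in the minipig alone.

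SULT1E1 (NM_213992) encodes estrogen sulfotransferase, which adds sulfate to estrogens and so keeps them from their receptor. Its single probe had a processed signal of 115 in the minipig and 3.26 in the conventional pig. The second value lay among the negative control spots of that array, whose median was 2.86 and 95th percentile 3.43, and the probe was not well above background there. As scanned, before any correction, the spot had a median of 151 over a local background of 23 in the minipig and of 39 over 23 in the conventional pig. The levels were -2.10 and -7.30. Because the dim side has no measured level, the gene has only a bound. It compares the minipig level with the lowest level well above background on the other array. By this rule the minipig level of SULT1E1 lay 10.3-fold above that floor, a log2 difference of -3.37. The figure rests on that floor and on the processing, and it is no firm limit on the size of the difference. Quantile normalization gave -3.09, normexp correction, which adds an offset of 50 to each signal, gave -1.39, and the signals taken as they stand gave -5.19. A bound can only fall on the side of the array where the probe was well above background. The quantile and normexp values therefore could not have reversed. The signals taken as they stand could have, and they stayed on the minipig side. RNA was taken from the ovarian tissue left after corpora lutea were cut away, and not from separated cells. Fewer cells of a type and less RNA per cell therefore cannot be told apart here or for any other gene.

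HSD11B2 (NM_213913) encodes the dehydrogenase that oxidises cortisol to inactive cortisone. Its 1 probe had a signal of 316 in the minipig and 1679.5 in the conventional pig, well above background on both. On the level scale the gene passed from below the 75th percentile of the array in the minipig (-0.64) to above it in the conventional pig (1.71). The log2 difference was 2.36, with a scanner error of 0.20, which is 5.12-fold higher in the conventional pig. Of 3679 probes of like mean level, 47 (1.28%) were at least as far apart in this direction, and the gene stood at percentile 98.0 of the named genes. HSD11B1, whose product works in the reverse direction and regenerates cortisol, was measured by 6 probes with a median difference of 0.18 and a range from -0.22 to 0.28. Of the pair of cortisol enzymes, the inactivating one was thus past 2-fold and the regenerating one was not.

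AKR1C1 names aldo-keto reductases of the AKR1C family, which reduce keto groups of steroids and include enzymes that turn progesterone into its 20alpha-hydroxy form. The symbol covers 2 gene records in the pig annotation, and their probes did not behave alike. Those of NM_001044569 had signals of 2017 and 3392 in the minipig and the conventional pig at the first probe. The second probe gave 142 and 753, and the last 333 and 1036. All 3 were brighter in the conventional pig, but by unequal amounts, with log2 differences of 0.70, 2.35 and 1.58 (median 1.58, SD over probes 0.83). The probes of NM_001044618 were much closer to background, at 55.3 and 39.7, 20.2 and 15.5, and 29.3 and 30.8. Their differences of -0.53, -0.44 and 0.021 had a median of -0.44 and an SD of 0.30, and none passed 2-fold. At the last of them the difference was smaller than its scanner error of 0.30.

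Over all 6 probes the median for AKR1C1 was 0.36 with an SD of 1.16, so the value of the symbol describes neither record. Treating the records apart was decided after the probes had been seen. The first record lay at percentile 94.5 of the named genes and the second at percentile 21.4. Within the first record, 26.4% of the probes of like mean level were at least as far apart as its first probe, 0.873% as its second and 3.34% as its last. Which transcripts of the AKR1C family each probe binds was not tested, and the values of both records are uncertain for that reason.

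**Figure D2:**
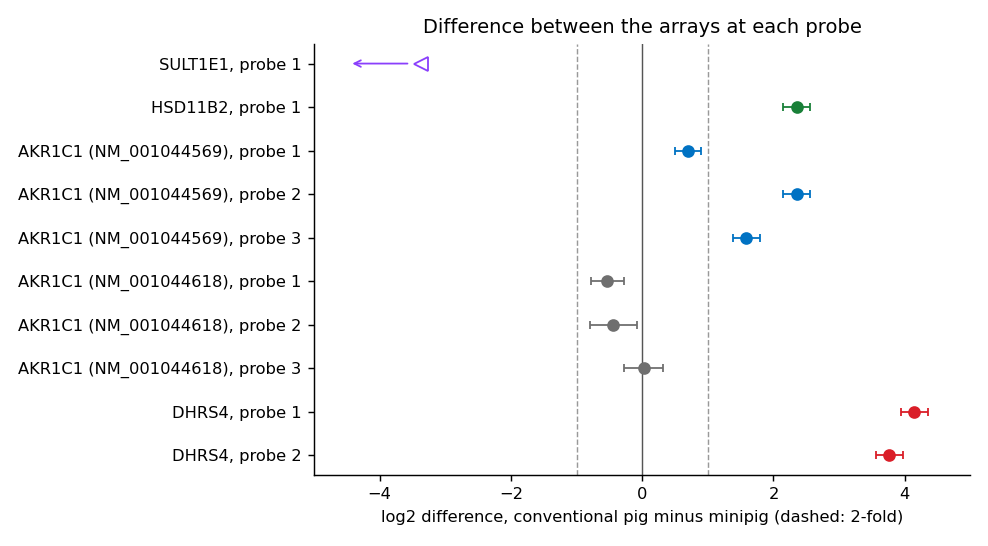
Log2 difference of each member probe, conventional pig minus minipig, with the scanner's error as bars and the 2-fold limits dashed; the open triangle with an arrow is the bound of SULT1E1. The 3 probes of one AKR1C1 record lie at 0.70, 2.35 and 1.58 and those of the other at or just below 0.

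The records of AKR1C1 lie in a cluster of related genes in Sscrofa11.1. In order along the assembly, AKR1CL1, the first AKR1C1 record, LOC733635, the second AKR1C1 record and AKR1E2 follow each other. Because they neighbour AKR1C1, these genes were read after its values were known. LOC733635 had 1 probe well above background, with signals of 390.0 in the minipig and 1231 in the conventional pig and a difference of 1.61, next to 1.58 for the first AKR1C1 record. The second LOC733635 probe was near background in both breeds. The 3 probes of AKR1CL1 ranged from 0.24 to 0.41, and AKR1E2 was at -0.28. Thus 2 adjacent genes of the cluster were past 2-fold, and the 3 others were not, but LOC733635 rests on 1 probe and the brightest probe of the first AKR1C1 record was under 2-fold (0.70). Beyond the cluster, 3 places from the second AKR1C1 record, KLF6 was past 2-fold toward the minipig at -1.43, with 4 probes from -1.81 to -0.77. Within 3 places of the other members, no gene with a value was past 2-fold: CSN1S1 (0.0405) and CSN2 (0.61) beside SULT1E1, AGRP (-0.19) beside HSD11B2, and JPH4 (-0.88) beside DHRS4.

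DHRS4 (NM_214019) encodes a short-chain dehydrogenase of peroxisomes that reduces retinal and other carbonyl compounds. Its 2 probes had signals of 381 and 372 in the minipig. On the conventional pig array they had 6986 and 5242. Both probes thus showed the same large step, with log2 differences of 4.15 and 3.76, each with a scanner error of 0.20. The gene difference was 3.95 (SD over probes 0.27), or 15.5-fold higher in the conventional pig. It was the largest difference measured among the members, that of SULT1E1 being a bound. In all, 6 of the 2363 named genes, DHRS4 included, were at least as far in that direction. Around the first probe 2 of 2363 probes of like level were as far apart, and around the second 4 of 2567, each count including the probe itself.

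In order of signed difference the members ran from SULT1E1 (known only by its bound, -3.37 as processed here) through AKR1C1 (0.36) and HSD11B2 (2.36) to DHRS4 (3.95). Each step was wider than the SD of 0.24 between single spots. The AKR1C1 probes ran from -0.53 to 2.35, and the highest of them lay below HSD11B2 by less than the scanner error of 0.20, so not every AKR1C1 probe is set apart from its neighbour in the order.

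**Figure D3:**
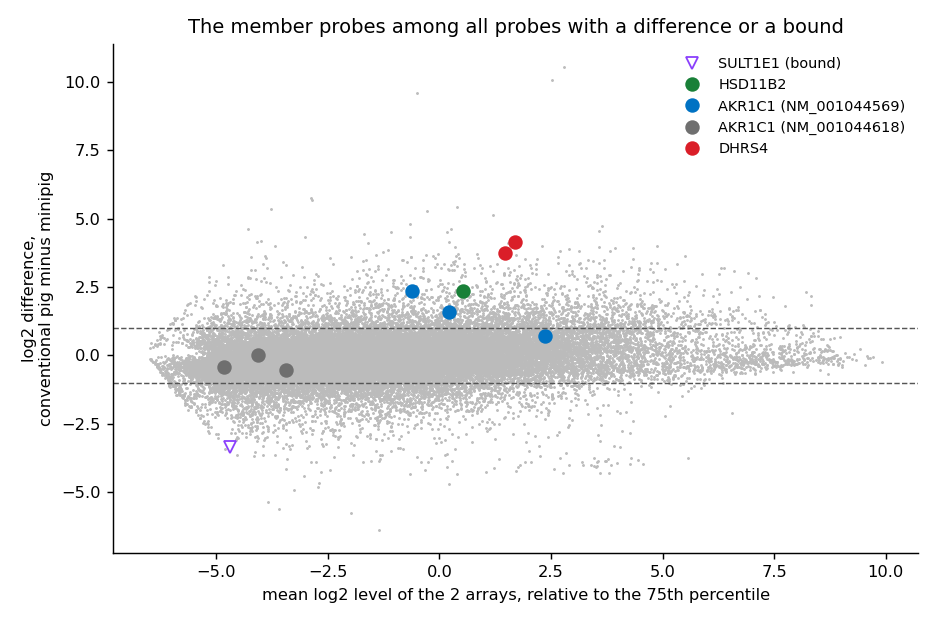
Log2 difference against mean log2 level for all 38883 probes with a difference or a bound (grey), with the member probes in colour and the 2-fold limits dashed. The DHRS4 probes lie at the upper edge of the probes of their level, SULT1E1 is drawn at its bound, and the probes of the second AKR1C1 record lie inside the main body.

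The nearest genes by size of difference were looked up over the 2 arrays, among 1158 genes with at least 2 probes that were all well above background. For DHRS4 they were MSMO1 (3.82), FABP3 (3.82) and LOC396781 (3.34). For HSD11B2 they were CYB5A (2.36), FMO1 (2.35) and HSPB1 (2.35). CYB5A encodes cytochrome b5, an electron donor of steroid synthesis, and FMO1 a flavin-containing monooxygenase. AKR1C1, at percentile 67.5 of the named genes, had UBE2E2, COPS4 and PAFAH1B1 beside it, each at 0.36, although its median stands for neither of its records. SULT1E1 has no measured difference, so no gene was placed beside it.

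Enzymes with related roles were taken from 6 lists with 103 genes in all, of which 31 were named on the arrays and 30 had a value. At least 2-fold higher in the conventional pig were 8 of them and in the minipig 5, where all named genes gave 11.7% and 7.96%. Their median difference was -0.14, against 0.037 over all named genes. Without the 4 members, 6 and 4 of 26 genes passed 2-fold and the median was -0.21. The median of the 30 genes changed sign under median centring (0.017), quantile (0.019) and loess normalization (0.054), so it has no settled side.

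Conjugation was covered thinly. Of 15 sulfation genes, 3 were named, and each of the 3 was higher in the minipig. So were 1123 of the 2363 named genes with a value, and nothing is read from a count over 3 genes. SULT2A1, which sulfates hydroxysteroids, was at -0.65 over 2 probes, and SULT1A3, named here after its value was seen because the list is short, was at -0.30. SULT1E1 was thus the 1 sulfation gene past 2-fold. Of 11 glucuronidation genes, GUSB alone had a value. It encodes the lysosomal enzyme that removes glucuronide, and it was at 1.34 from 1 probe.

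Among 16 genes for 11beta- and 17beta-hydroxysteroid dehydrogenases, 5 had a value, with a median of 0.18. HSD17B1, which makes estradiol from estrone, had signals of 6129 in the minipig and 818 in the conventional pig, a difference of -2.96 opposite to that of HSD11B2. HSD17B4, a peroxisomal enzyme that can oxidise estradiol, was at 1.13, but fell under 2-fold with quantile (0.80) and loess normalization (0.89). HSD17B8 was at -0.41. The dehydrogenases therefore did not move as a group.

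Of 14 aldo-keto reductases and 5-reductases, 6 had a value and their median was 0.34. AKR1B1, an aldose reductase that also forms prostaglandin F2alpha, was at 1.96, with its 2 probes at 1.90 and 2.01. SRD5A2, a steroid 5alpha-reductase, was at 1.36 from dim signals, and 1 of its 2 probes gave only a bound. With normexp correction it fell to 0.40. By symbol, AKR1E2 was the 1 gene of this list higher in the minipig, although the second AKR1C1 record taken apart was at -0.44. AKR1A1, named after its value was seen, turned from 0.32 to -0.0805 with quantile normalization.

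The 29 carbonyl and retinoid genes included 5 with a value, and their median was 0.15. RDH11, a retinal reductase like DHRS4 but of another subcellular site, had signals of 5192 and 25132 and a difference of 2.22, with 5 probes from 1.56 to 2.27. CBR1, a cytosolic carbonyl reductase, went the other way at -1.49 from 1 probe. RBP4, a retinol carrier of plasma, was at 0.15, although its 3 probes ran from -1.55 to 0.37. DHRS4 and RDH11 were thus the members of this list past 2-fold in the conventional pig.

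For cytochrome P450 hydroxylation and methylation, 11 of 18 genes were named and 10 had a value, with a median of -0.29. CYP1A2 was not well above background in either breed. CYP2C49 was at 1.46, CYP3A29 at -1.21 and CYP3A46 at -1.17, and each fell under 2-fold with normexp correction (0.71, -0.70 and -0.73). They belong to families of close paralogs whose transcripts a probe may share, and their values are uncertain. POR, the reductase that feeds electrons to P450 enzymes, was at -0.84, and CYP2B22 at 0.14, which turned to -0.0037 with normexp correction and to -0.25 with no filter.

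**Figure D4:**
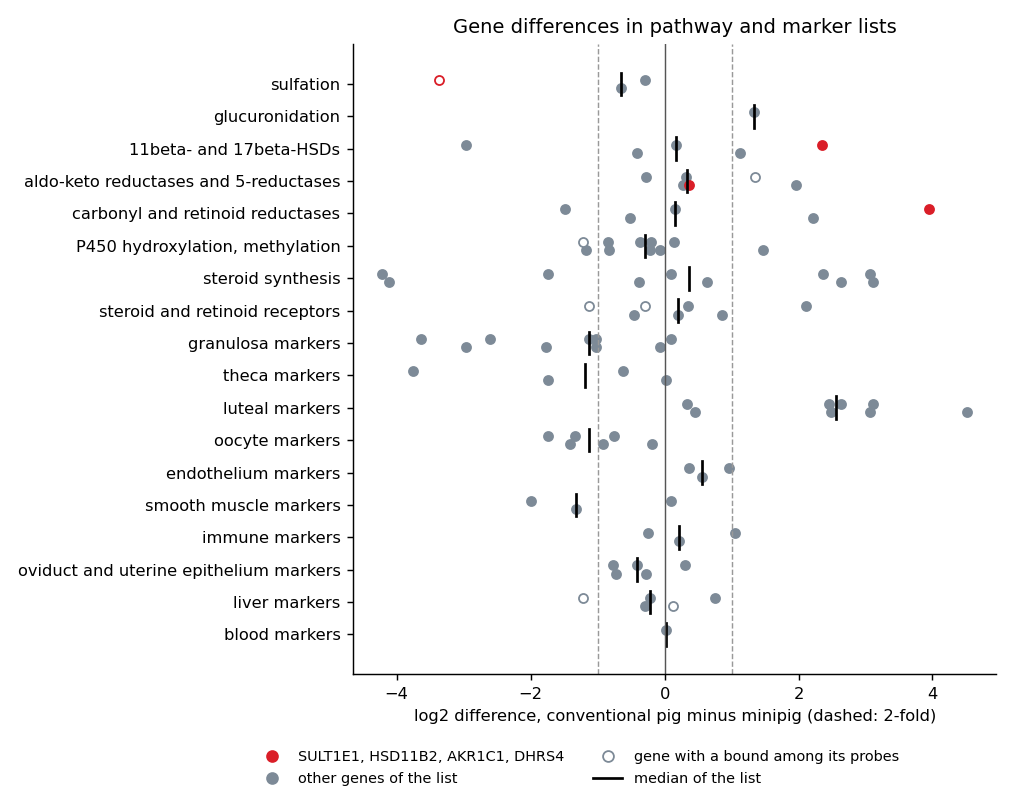
Log2 difference of each gene with a value in the pathway and marker lists, conventional pig minus minipig, with the 4 members in red, open circles where at least 1 probe of the gene gave a bound, the list median as a black bar and the 2-fold limits dashed. The 3 sulfation genes lie below 0. The 1 gene with a value on the glucuronidation list is GUSB, which removes glucuronide, and it lies above 0. Each other list of inactivating enzymes spreads to both sides. All 8 luteal markers lie above 0 and all 6 oocyte markers below it, where of the 2363 named genes with a value 1240 lie above 0 and 1123 below.

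Steroid synthesis and receptor genes give the setting in which these enzymes were measured. Of 10 synthesis genes with a value, STAR (3.07), CYP11A1 (2.63), HSD3B1 (3.11) and CYB5A (2.36), which serve the early steps toward progesterone or support P450 enzymes, were at least 2-fold higher in the conventional pig. CYP17A1 (-1.74), CYP19A2 (-4.22) and CYP19A3 (-4.11), for androgen and estrogen synthesis, were higher in the minipig, with the same caution on paralogs for CYP19A genes. FDX1 was at 0.63 and CYP21A2 at -0.38, and the list median was 0.36. CYP19A1, a further aromatase gene named after its value was seen, was at 0.090, with probes at -0.34 and 0.52, so the aromatase genes did not all lie on the side of SULT1E1. HSD11B2 and DHRS4 lay on the same side as STAR, CYP11A1, HSD3B1 and CYB5A. Of 7 receptor genes with a value, which had a median of 0.20, PGRMC1 was at 2.12 and PGRMC2 at 0.86. NR3C1, the glucocorticoid receptor, was at -0.46. RXRG, at -1.14, fell under 2-fold in every alternative scaling and filter, and ESR2 was not well above background in either breed.

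Markers of ovarian cell types lay on both sides, as the members did. With 1 array per breed, it cannot be shown whether markers and members vary together. Of the 2363 named genes with a value, 1240 were higher in the conventional pig and 1123 in the minipig. A summed level is the sum over a list's genes of each gene's level, its median over probes, taken back from log2. The brightest gene is the one with the highest level. Signals of different probes also depend on how well each probe binds, so the sums and the brightest gene describe a list on an array and do not measure cell numbers. All 8 luteal markers were higher in the conventional pig, as were HSD11B2, DHRS4 and the first AKR1C1 record, with a median of 2.55 and a summed level of 113 in the minipig and 351 in the conventional pig. Past 2-fold were 6 of the 8, while RLN2 (0.45) and OXT (0.33) were not. STAR was the brightest of them in the conventional pig and OXT in the minipig, and none was below background on either array. Corpora lutea had been cut away before RNA extraction, and whether luteal tissue remained was not tested. On the side of SULT1E1, 8 of 9 granulosa markers were higher in the minipig, with a median of -1.13, a summed level of 129 against 56.4 and SERPINE2 the brightest. So were 3 of 4 theca markers (median -1.18, summed level 82.6 against 12.3, INSL3 the brightest in the minipig and LHCGR on the other) and 6 of 6 oocyte markers (median -1.13, 3.40 against 1.47, ZP4 the brightest). Of these, FST turned to 0.0787 with median centring and BMP15 to 0.0064 with normexp correction, toward the conventional pig. For some of these genes the probes lay on both sides, among them INHBA (-3.91 to 0.37), ZP2 (-1.96 to 0.46) and BMP15 (-0.42 to 0.055). Every gene named in these lists was well above background on both arrays. HSD17B1 stands in the granulosa list and in the dehydrogenase list alike. The synthesis list also shares STAR, HSD3B1 and CYP11A1 with the luteal list, CYP17A1 with the theca list and CYP19A1 with the granulosa list. CYP2E1 and CYP3A29 are in both the cytochrome P450 and the liver list. These lists therefore partly repeat the same genes.

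Markers of other tissues rested on few genes. The 3 endothelium markers had a median of 0.55 and summed levels of 2.04 and 2.89 in the minipig and the conventional pig, with PECAM1 the brightest. The 3 smooth muscle markers had a median of -1.32, but their sum, led by ACTA2, was 76.2 and 74.7. The immune markers (median 0.22 over 3 genes, which turned to -0.0195 with no filter on dim probes, sums of 2.59 and 2.71, CD163 the brightest) included CD4, which was not well above background in either breed. The epithelial markers of oviduct and uterus, tissues known for estrogen sulfation, had a median of -0.41 over 5 genes and sums of 2.19 and 1.56. SPP1 was the brightest of them in the minipig. In the conventional pig KRT8 (level -1.07) and SPP1 (-1.09) were nearly alike. The 5 liver markers had a median of -0.21, which turned positive with quantile (0.039) and loess normalization (0.017), and sums of 11.1 and 18.4 led by APOA1. The blood marker HBE1 was at 0.018. For SULT1E1, HSD11B2, AKR1C1 and DHRS4 the part of these cell types in the differences was not tested.

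**Figure D5:**
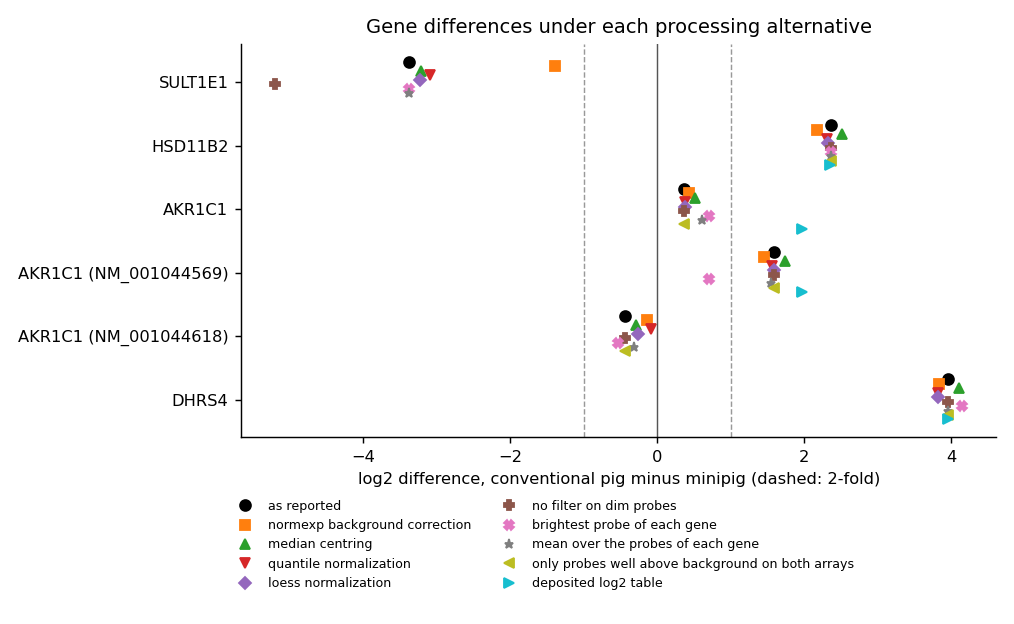
Log2 difference of each member, and of the 2 AKR1C1 records apart, as reported (black) and under each processing alternative, with the 2-fold limits dashed. The deposited table is shown with its breeds turned to those of the scanner files and lists only probes past 2-fold. HSD11B2 lies between 2.17 and 2.51 and DHRS4 between 3.82 and 4.15, while SULT1E1 ranges from -5.19 to -1.39 and AKR1C1 from 0.36 to 1.97.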

How the data were processed

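The authors hybridised RNA to single-colour Agilent porcine arrays and deposited the scanner output, in which Agilent Feature Extraction 10.7.3.1 gives each spot a processed intensity corrected for background and spatial trend with no normalization across arrays. A second file the authors deposited holds log2 values of 5617 probes, made with GeneSpring, whose normalization is not given in the sources used here. All 5617 are well above background in both breeds and at least 2-fold apart, a cutoff the paper names. Its values equal the log2 intensity minus 1 constant per array, and its breeds are opposite to those of the scanner files, which were used throughout.

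Control and outlier spots were left out, log2 intensities were averaged over spots of the same probe, and the 75th percentile of the array was taken off. Of 43597 probes, 36659 lay well above background in both breeds and 4695 in neither. Where 1 array was, the difference is a bound against the higher of the lowest level well above background on the other array and the probe's own level there. This gave 2224 bounds for 2243 such probes. The rest had no level above that floor on the brighter array and were left out. Probe accessions, stripped of versions, were looked up in the RefSeq table for Sscrofa11.1, which named 12.8% of the probes, and 4 symbols covered more than 1 gene record. The value of a gene was its probes' median, with bounds counted. List genes absent by symbol were matched by synonym (SULT1A1 to SULT1A3, CYP3A39 to CYP3A46, RLN to RLN2). The members and lists were chosen with earlier results of these data known.

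Genes were named by a rule: the 4 members with every probe; of each pathway list every gene at least 2-fold apart and, of the others, the one highest each way; and the 3 genes nearest in difference to each member measured in both breeds (the same was planned for the bound of SULT1E1 and is not given, since bounds have no order). For 1 gene under this rule the value is not reported here. Scanner errors are the error that Feature Extraction gives for a processed intensity. The alternatives were normexp background correction (offset 50, on median spot and background signals), median centring, quantile and loess normalization (span 0.3), dim probes left unfiltered, probes restricted to those well above background in both breeds, the log2 table with its breeds turned to those of the scanner files, and the brightest probe or the mean over probes of a gene. No p-value was computed, since there was 1 array per breed, whose number limits the precision. The steps were tested on simulated data. Normexp was run with limma 3.58.1 in R 4.3.3. All else was run in Python 3.11.15 using statsmodels 0.14.6 for loess, pandas 2.3.3 and numpy 2.4.6 for tables, and matplotlib 3.10.9 for plots.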

Additional observations from a re-analysis of the deposited data

How the results depend on the processing

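Normexp correction and the 3 other scalings left HSD11B2 between 2.17 and 2.51 and DHRS4 between 3.82 and 4.11, and the brightest probe gave DHRS4 4.15, all shifts under the SD of 0.24 between spots. Filters, and for genes with 1 probe the choice of probe, could not move these values. The deposited log2 table, its breeds turned to those of the scanner files, lists only probes past 2-fold and so bears on no call. SULT1E1 was at -1.39 with normexp correction, -3.09 with quantile normalization and -5.19 with no filter. The restriction to probes measured in both breeds and the deposited table gave no value for it. AKR1C1 rose from 0.36 to 0.70 with the brightest probe, 0.61 with the mean over probes and 1.97 in the deposited table, which by its selection holds only the 2 of its 6 probes past 2-fold. Taken apart, a choice made after seeing the data, NM_001044569 was at 0.70 with the brightest probe and 1.97 in that table, and NM_001044618 at -0.15 with normexp correction and -0.0805 with quantile normalization. Normexp correction lowered the counts past 2-fold toward the minipig to 1411 probes, 98 genes and 3 inactivation and conjugation genes, from 3475, 188 and 5. With only probes measured in both breeds the last count was also 3, since bounds drop out. The cause of the other shifts was not tested. Genes with 1 probe have no second probe to set beside it, and signals near background limit SULT1E1 and NM_001044618.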
